A study of Homo sapiens with 3 samples.

Results

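The genes described here are the enzymes that make microRNAs (miRNAs) and the proteins that work beside them: DICER1, DROSHA, DGCR8, TARBP2, PRKRA, XPO5, RAN, DDX5 and DDX17. They were chosen by symbol, with earlier results of these data known, and all 9 were among the 12040 genes of the deposited table. The libraries held poly(A)-selected RNA of HEK293, an established human embryonic kidney line, here a T-REx Flp-In derivative carrying a FLAG-tagged DICER1 transgene. The transgene is shared by all 3 groups, and the labels do not say if it was induced. The groups were an RNA interference transfection against DICER1, one against DROSHA and a mock transfection, with 1 library each, and all titles carry the unexplained label 2.5d. The study asked what DICER1 depletion does to transcript levels, with the other groups as controls.

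The table has no header. Its 3 columns of levels could not be matched to a group and were not used, and the values described are the 2 log2 fold changes that the authors made from them. Each is the log2 ratio of a library to 1 shared denominator library, after 1 was added to every level. They are called the first and the second comparison, their numerators the first and the second library, and no knockdown is assigned to either. Where a value is given as a percentage or a fold of the shared library, it is the same ratio on a linear scale, so the added 1 is part of it and it understates differences of genes with low levels. The depth of the libraries is unknown, and absolute levels are not described. Without replicates no difference can be set against replicate error and no p-value is given. Of 11 genes fixed as markers of HEK293 cells, 8 were in the table, among them VIM, KRT18 and HOXA9. NEFM, PAX2 and LHX1 were not among the genes listed, nor were the 5 markers of blood, liver, erythroid, fibroblast and endothelial cells. In the authors' deposited table the 8 markers ran from -0.11 to 1.05 for the first library and from -0.57 to 0.14 for the second, and the part of such differences in other values was not tested.

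A miRNA begins as a hairpin in a long primary transcript. In the nucleus DROSHA, an RNase III enzyme, cuts the hairpin free together with DGCR8, the partner that binds the RNA, and the DEAD-box helicases DDX5 and DDX17 assist at a subset of hairpins. XPO5 carries the hairpin to the cytoplasm bound to RAN in its GTP form. There DICER1, also an RNase III enzyme, cuts off the loop, beside the double-stranded RNA-binding proteins TARBP2 and PRKRA. The pathway also acts on its own genes. The transcript of DGCR8 holds hairpins that the DROSHA-DGCR8 complex can cut, and that of DICER1 is a known target of let-7 and of miR-103 and miR-107.

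The miRNA sequences with these ties are shown because they mark where the pathway can touch the DICER1 and DGCR8 transcripts. They come from RefSeq on GRCh38.p14, with the seed (bases 2 to 8) in capitals. The first lines are let-7a and let-7i, as examples of the 9 mature let-7 family members (miR-98 included) found there with 1 shared seed, GAGGUAG, and then miR-103a and miR-107, which share the seed GCAGCAU. The last lines are the mature miRNAs whose hairpins lie in DGCR8.
let-7a-5p (chr9:94175962-94175983, + strand, among 3 loci): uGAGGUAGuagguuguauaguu
let-7i-5p (chr12:62603691-62603712, + strand): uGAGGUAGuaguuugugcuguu
miR-103a-3p (chr5:168560904-168560926, - strand, among 2 loci): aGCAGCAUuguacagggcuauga
miR-107 (chr10:89592756-89592778, - strand): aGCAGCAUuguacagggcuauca
miR-3618 (chr22:20085797-20085818, + strand): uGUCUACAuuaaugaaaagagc
miR-1306-5p (chr22:20086072-20086093, + strand): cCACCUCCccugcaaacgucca
miR-1306-3p (chr22:20086112-20086129, + strand): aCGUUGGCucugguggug
On the GENCODE release 29 transcript of DGCR8, the mature miR-3618 lay in the 5' UTR part of exon 2, and both arms of miR-1306 lay in coding sequence of the same exon. Among the other members, MIR3173 lay in an intron of DICER1, and MIR3064 and MIR5047 lay in introns of DDX5. None of these miRNA genes had a row in the table.

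The DICER1 gene lies on chromosome 14 (chr14:95086228-95158010, - strand, GRCh38), and its transcript used here has 29 exons, 5769 coding bases and a 3' UTR of 4270 bases. The motif CTACCTC, the complement of the let-7 seed, occurred 4 times in the coding sequence of DICER1 and not in its UTRs. For 3 of the 4 the next base was an A, giving the 8-mer CTACCTCA. These matches are shown in capitals, read on the transcript strand.
DICER1 let-7 match at base 3933 of the transcript (chr14:95103740-95103764): tgcaaccaaCTACCTCAtattccat
DICER1 let-7 match at base 4041 (chr14:95103632-95103656): ctaacaaatCTACCTCAgatggaag
DICER1 let-7 match at base 5431 (chr14:95094098-95094122): gattttggaCTACCTCAtaaccaag
DICER1 let-7 match at base 2927, a 7-mer (chr14:95107881-95107904): tactgtgttCTACCTCttaatgtt
Of 10585 genes of the table matched by symbol to a coding transcript, 5.16% held the 8-mer in coding sequence. Genes whose symbols had no such match were left out of these shares and counts. The 8-mer was held there at least 3 times by 4 of the matched genes: DICER1, CECR2, DOCK4 and SALL1. The motif ATGCTGC, the complement of the miR-103 and miR-107 seed, occurred once in the coding sequence of DICER1 and 5 times in its 3' UTR. A 3' UTR with at least 5 of them was found in 4 of the matched genes, DICER1, FGFRL1, PLEKHA1 and SLC35D1. At least 1 was held in the 3' UTR by 13.2% of the 10585 genes. Elsewhere among the 9 genes, CTACCTC occurred once in the 3' UTR of TARBP2 and once in the coding sequence of XPO5, and of the 10585 genes 10.1% held it in the 3' UTR and 13.8% in coding sequence. ATGCTGC occurred once in the coding sequence and once in the 3' UTR of TARBP2, and once in the coding sequence of PRKRA, and 21.8% of the 10585 genes held it in coding sequence. A match to a motif is a description of the sequence and does not show that a miRNA binds there.

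**Figure D1:**
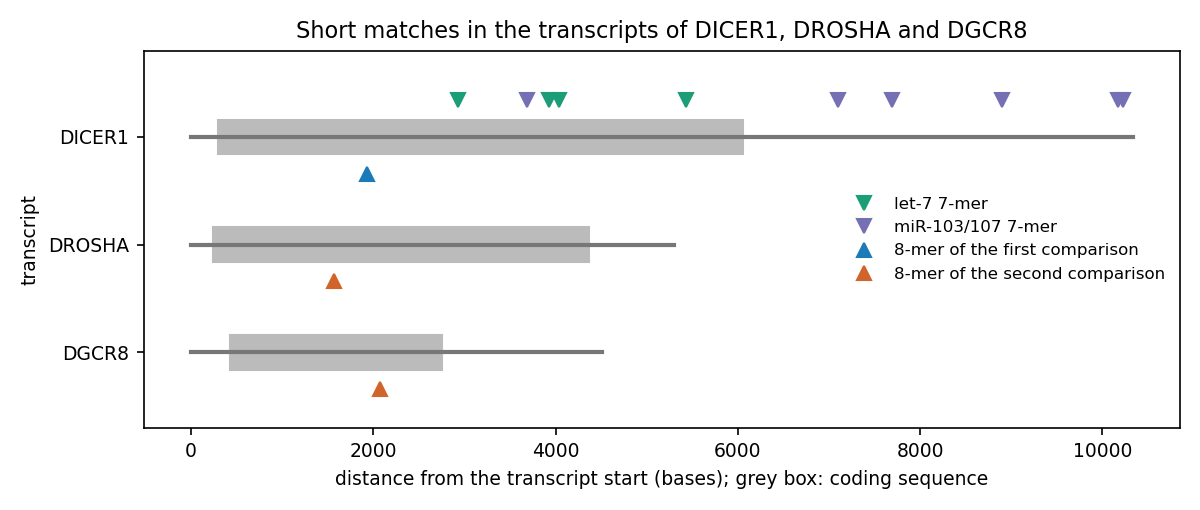
Short sequence matches along the transcripts of DICER1, DROSHA and DGCR8, with distance from the transcript start in bases on the horizontal axis, the coding sequence as a grey box and the UTRs as lines. Triangles above mark complements of the seeds of let-7 and of miR-103 and miR-107, seen in DICER1 alone of these 3 genes, and triangles below mark the 8-mers CAATCTAA (first comparison) and GTGACTTA (second comparison), each found once in coding sequence.

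DICER1 was below the shared library in the first comparison and above it in the second, and it spanned the widest range of the 9 genes. The authors' deposited table gave it a log2 fold change of -1.32 for the first library, the 4th lowest of all 12040 genes, and of 0.58 for the second, the 153rd highest. On the linear scale the first library stood at 40.2% of the shared library and the second at 150%. The libraries were thus ordered second, shared, first, and the ratio of the highest to the lowest was 3.72. Reads from the endogenous gene and from the FLAG-tagged transgene cannot be told apart in this row.

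DROSHA was near the shared library in the first comparison and far below it in the second. Its log2 fold change was -0.11 in the first and -1.65 in the second comparison of the authors' deposited table, and the latter was the 9th lowest of all genes. The first library stood at 92.4% of the shared library and the second at 31.8%, and the highest of the 3 libraries was 3.15 times the lowest. DICER1 and DROSHA were each lowest in a different library. The library with the least DROSHA had the most DICER1, and where DICER1 was lowest, DROSHA was near its value in the shared library. The ratio of DICER1 to DROSHA was 43.5% of its value in the shared library in the first library and 470% in the second.

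DGCR8, the RNA-binding partner of DROSHA whose transcript carries the miR-3618 and miR-1306 hairpins, stood above the shared library in both comparisons. Its fold changes in the authors' deposited table were 0.17 and 0.54 on the log2 scale, and the second of these ranked 197th highest among all genes. The first library was at 112% of the shared library and the second at 146%. DROSHA and DGCR8 thus lay on opposite sides of the shared library in both comparisons. The ratio of DROSHA to DGCR8 in the second library was 21.8% of that ratio in the shared library, against 82.2% for the first library. The exons of DGCR8 overlap those of TRMT2A on the opposite strand, and the labels do not say if strand was used in counting. The authors' deposited table listed TRMT2A at 0.17 and -0.17. It was thus level with DGCR8 in the first comparison and on the other side of 0 from it in the second. Any share of TRMT2A reads in the DGCR8 values was not tested.

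DDX5 and DDX17, related DEAD-box RNA helicases that assist primary miRNA cutting and also act in transcription and splicing, differed from each other in the second library. For DDX17 the authors' deposited table held log2 fold changes of -0.04 and -0.55. The second library stood at 68.4% of the shared library and the first at 97.2%. The second value was the 551st lowest of all genes and fell short of the 1.5-fold line. For DDX5 the authors' deposited table held 0.08 and 0.20, which is 106% and 115% of the shared library. In the second comparison DDX5 therefore lay above the shared library and DDX17 below it, with DDX17 further away. The ratio of DDX17 to DDX5 in the second library was 59.7% of that in the shared library, and in the first library 91.9%. The longest run of bases that the transcripts of DDX5 and DDX17 used here have in common is 26. DDX5 shares exon bases with CEP95, and DDX17 with KDELR3, both on the opposite strand. The authors' deposited table listed KDELR3 at 0.04 and 0.05 and CEP95 at -0.03 and 0.07.

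Of the partners of DICER1, TARBP2 stood above the shared library in both comparisons and PRKRA was close to it. TARBP2, which binds double-stranded RNA and helps to load miRNAs onto Argonaute proteins, had values of 0.24 and 0.40 in the first and second comparison of the authors' deposited table. Both lay above 0, at 118% and 132% of the shared library, and the second was the 625th highest of all genes. PRKRA, also known as PACT, binds DICER1 and the kinase PKR, and the authors' deposited table gave it 0.01 and 0.10. The first of these turned to -0.02 when the median of all genes was subtracted. The highest of the 3 libraries was 1.07 times the lowest for PRKRA and 1.32 times for TARBP2. The ratio of DICER1 to TARBP2 in the first library was 33.9% of that in the shared library, and that of DICER1 to PRKRA was 39.8%. In the second library these ratios were 113% and 140%, and the ratio of TARBP2 to PRKRA was 117% in the first library and 124% in the second.

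Of the export factors, RAN was nearly level, while the highest library of XPO5 was 1.25 times its lowest. XPO5, the exportin for miRNA precursors, had fold changes of 0.20 and -0.13 in the authors' deposited table, so the first library stood above the shared one and the second below it. On the linear scale these were 114% and 91.6% of the shared library. RAN, the GTPase that powers exchange across the nuclear pore for many cargoes, had -0.03 and 0.06 in the authors' deposited table, 97.7% and 104% of the shared library. Its highest library was 1.07 times its lowest, and the ranges of RAN and PRKRA were the narrowest of the 9 genes. GENCODE holds 9 genes with RANP names, counted as pseudogenes of RAN by name alone. Their likeness to RAN was not measured. Near-identical copies can share reads with RAN, so its values are uncertain. XPO5 shares exon bases with POLR1C on the opposite strand, which the authors' deposited table listed at 0.07 and 0.17.

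A 2-fold difference, a log2 value of at least 1 in size, was used as the line for a described count. DICER1 and DROSHA, at which the RNA interference transfections were aimed, were among the 9 genes by choice. Counts that include them therefore do not describe the pathway as a whole. In the first comparison 1 of the 9 genes was past it, DICER1, on the low side, where 0.166% of all genes lay, and none was on the high side, where 0.174% lay. In the second comparison 1 of 9 was past it, DROSHA, also on the low side, where 0.748% of all genes lay, and none was on the high side, with 0.0831% of all genes. A 1.5-fold line counted the same genes, 1 of 9 in each comparison, against 2.17% of all genes in the first and 5.07% in the second, both directions together. DICER1, DGCR8 and DDX17 fell just short of that line in the second comparison. Apart from DICER1 and DROSHA, the remaining 7 genes ran from -0.04 to 0.24 in the first and from -0.55 to 0.54 in the second comparison of the authors' deposited table. Within 0.2 of 0 lay 6 of these 7 in the first comparison, beside 68.7% of all genes, and 4 of 7 in the second, beside 57.0%. The median of the 9 genes was 0.01 in the first and 0.10 in the second comparison, and that of all genes 0.03 and 0.01. Both comparisons share the denominator library, so a deviation of that library enters both.

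**Figure D2:**
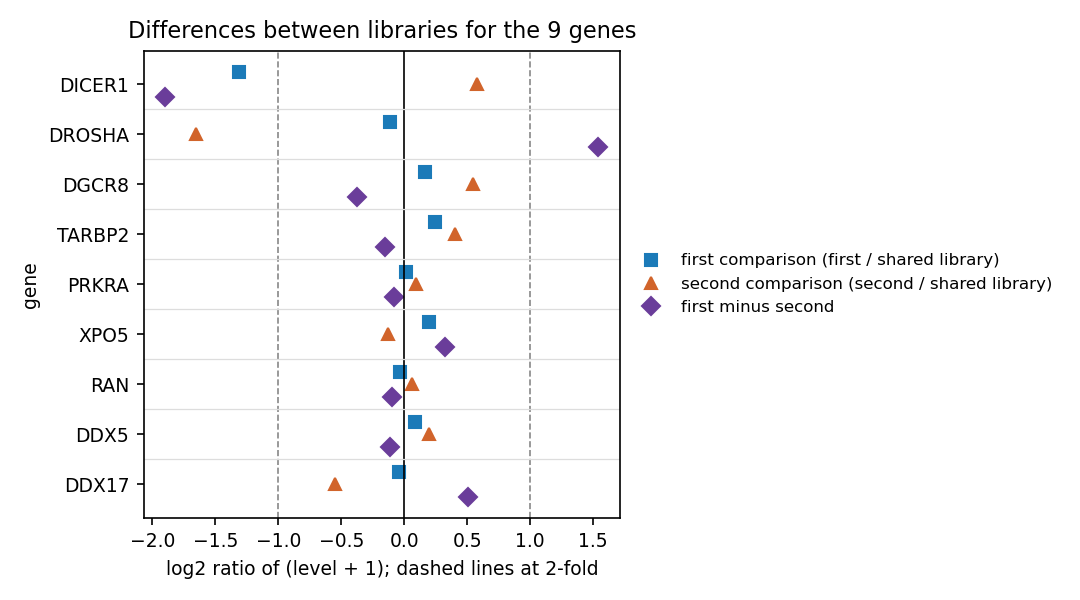
Log2 ratios of level plus 1 for the 9 genes, with squares for the first library over the shared library, triangles for the second over the shared library and diamonds for the first over the second; dashed lines mark a 2-fold difference. DICER1 and DROSHA alone pass the lines, DICER1 at -1.32 (squares) and DROSHA at -1.65 (triangles) in the authors' deposited table. Both are genes at which the transfections were aimed.

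The first log2 fold change minus the second sets the compared libraries directly against each other, without the shared one. DICER1 was lower in the first library than in the second by a log2 difference of -1.90, the 3rd lowest of all genes, at 26.9% of the second library. DROSHA was higher in the first library, with a log2 difference of 1.54, the 36th highest, at 2.91 times the second library. These were 1 of 9 genes past 2-fold on each side, where 0.349% of all genes were on the low side and 1.31% on the high side. Both genes were targets of the transfections, so these counts do not describe the other members. DDX17 followed on the high side with a difference of 0.51 and XPO5 with 0.32. The difference was -0.38 for DGCR8, -0.16 for TARBP2, -0.12 for DDX5, -0.10 for RAN and -0.08 for PRKRA. The ratio of DROSHA to DGCR8 in the first library was 3.77 times that in the second, and that of DDX17 to DDX5 was 1.54 times.

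**Figure D3:**
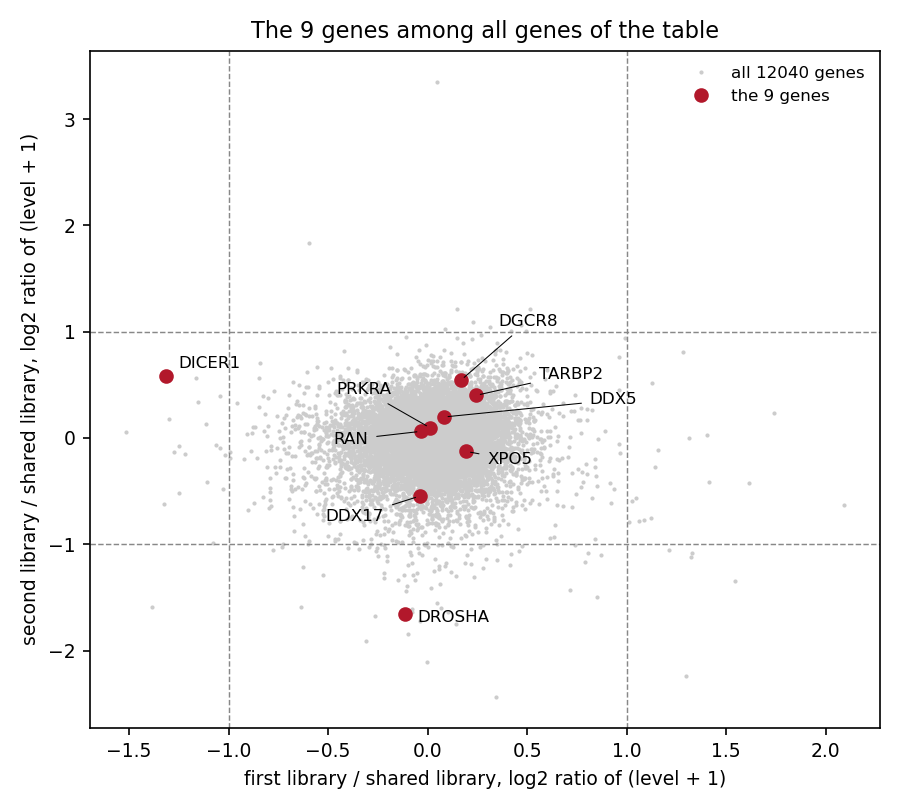
Log2 ratio of level plus 1 for the first library over the shared library (horizontal axis) and for the second over the shared library (vertical axis), for all 12040 genes (grey) and the 9 genes (red), with dashed lines at 2-fold. DICER1 lies at the left edge and above 0, and DROSHA near the bottom and near 0 on the horizontal axis. The other 7 lie inside the dashed lines, with DGCR8 at 0.54 and DDX17 at -0.55 on the vertical axis in the authors' deposited table. The axes share a denominator library.

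The genes with values most like those of DICER1 and DROSHA were taken by Euclidean distance in the 2 log2 fold changes, over 3 libraries and the 12039 other genes. Nearest to DICER1 in the authors' deposited table were FAM18B1 at -1.16 and 0.57, CHUK at -1.16 and 0.34, CMPK1 at a distance of 0.33, and VMA21 at -1.05 and 0.39. CHUK is a kinase of NF-kappaB signalling and CMPK1 a nucleotide kinase. Nearest to DROSHA in the authors' deposited table were RRM2 at -0.08 and -1.64, SLMO2-ATP5E at -0.08 and -1.61, SLMO2 at -0.04 and -1.73, and OIP5 at -0.26 and -1.67. SLMO2-ATP5E is named for a readthrough of SLMO2, so these count as 1 locus, and RRM2 is a subunit of ribonucleotide reductase.

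The transcripts were also searched for 4 short words, CAATCTA and AATCTAA for the first comparison and GTGACTT and TGACTTA for the second. The words were picked from an earlier look at these same fold changes, and no relation between them and the values was tested. Joined, they give CAATCTAA, which occurred in the coding sequence of DICER1 once and in no other of the 9 transcripts, and GTGACTTA, which occurred once in that of DROSHA and once in that of DGCR8. The stretches are shown, with the word in capitals, to mark where it lies in each transcript. DROSHA and DGCR8 hold the same word and stood on opposite sides of the shared library in the second comparison. Any relation of the word to these values was not tested.
DICER1 at base 1934 of the transcript (chr14:95116548-95116572, - strand): tcctatgttCAATCTAAaggaagag
DROSHA at base 1570 (chr5:31511127-31511151, - strand): gtaggcttcGTGACTTAtatgacaa
DGCR8 at base 2080 (chr22:20092844-20092868, + strand): attgatggtGTGACTTAcggatctg
Of the 10585 genes, 0.964% held CAATCTAA in coding sequence and 1.71% in the 3' UTR. For GTGACTTA the shares were 1.20% and 2.89%, and for the 7-mer TGACTTA they were 5.73% and 11.5%. The 7-mers CAATCTA and AATCTAA were held in the 3' UTR by 5.34% and 11.6% of these genes. The nearest genes and the words were picked from the same fold changes, so a match between them is no support for a link. Among the genes nearest to DICER1, CHUK and VMA21 held CAATCTAA in the 3' UTR and CMPK1 held both of its 7-mers there at separate places. VMA21 and CMPK1 also held TGACTTA, a word of the second comparison, in the 3' UTR, and CMPK1 held it in coding sequence too. Both genes stood above the shared library in that comparison, and a relation was not tested. Near DROSHA, RRM2 held GTGACTTA in the 3' UTR and OIP5 held none of the 4 words in coding sequence or 3' UTR, and FAM18B1, SLMO2 and SLMO2-ATP5E were not matched to a transcript. The 7-mer GTGACTT alone also occurred in the 3' UTR of DICER1, and in the coding sequence and the 3' UTR of XPO5. Of the 10585 genes, 1062 held this 7-mer in coding sequence and 1469 (13.9%) in the 3' UTR. The labels do not give the sequences of the transfected RNAs, and any part of these words in the values was not tested.

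The other genes of the pathway were mostly within 2-fold of the shared library, as were all genes but 0.341% (first comparison) and 0.831% (second comparison). Of 38 measured cofactors of primary miRNA processing, none was past 2-fold in the first comparison, with a median of 0.0050, and 1 was in the second, with a median of -0.02. That gene was HNRNPUL1, an RNA-binding protein of the hnRNP U group, which the authors' deposited table listed at 0.05 and then -1.55. The lowest of the cofactors in the first comparison of the authors' deposited table was the splicing regulator CELF2 at -0.67. In the second the authors' deposited table had METTL14, a partner of the m6A writer METTL3, as the highest at 0.39. Of 23 genes of precursor editing, tailing and decay none was past 2-fold in either comparison, with medians of 0.03 and 0.04. The authors' deposited table put the editing enzyme ADAR lowest of them in the second comparison at -0.76 and at 0.10 in the first, while its relative ADARB1 was the highest in both, at 0.29 and 0.31. For the first library the authors' deposited table had ZC3H12A, an RNase that can cut miRNA precursors, as the lowest at -0.21.

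Downstream of DICER1, none of 26 genes of the Argonaute and GW182 complex and its chaperones was past 2-fold in either comparison, and the medians were 0.02 and 0.07. The ends of this list in the first comparison of the authors' deposited table were AJUBA at 0.35 and IPO8 at -0.62. In the second they were EIF2C3, which encodes Argonaute 3, at 0.53 and TNRC6A, a GW182 protein, at -0.55 in the authors' deposited table. Of 33 other genes of the Ran cycle and of nuclear transport receptors, none was past 2-fold in the first comparison and 1 was in the second, IPO7, an import receptor, at -1.10 in the authors' deposited table. The medians of this list were -0.02 and 0.0031. Its remaining ends in the authors' deposited table were TNPO2 at 0.22, with IPO8 again the lowest, and RANBP2 at 0.41 in the second comparison. XPO5 and RAN lay between the ends of their list in both comparisons.

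Of 31 further DEAD-box helicases none was past 2-fold in either comparison, with medians of 0.03 and 0.09. In the authors' deposited table they ran from DDX50 at -0.26 to DDX59 at 0.27 for the first library, and from DDX39B, an mRNA export helicase, at -0.37 to DDX19A at 0.35 for the second. DDX17 was below all 31 in the second comparison, and DDX5 was within their range. Of 13 other proteins with a double-stranded RNA-binding domain none was past 2-fold in either comparison, with medians of -0.03 and 0.04. The authors' deposited table had EIF2AK2, the kinase PKR that PRKRA binds, as the lowest in the first comparison at -0.21 and ADARB1 as the highest. For the second library STAU1, an RNA transport and decay factor, was lowest at -0.78 and NKRF highest at 0.42 in the authors' deposited table. TARBP2 and PRKRA lay between these ends in both comparisons.

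**Figure D4:**
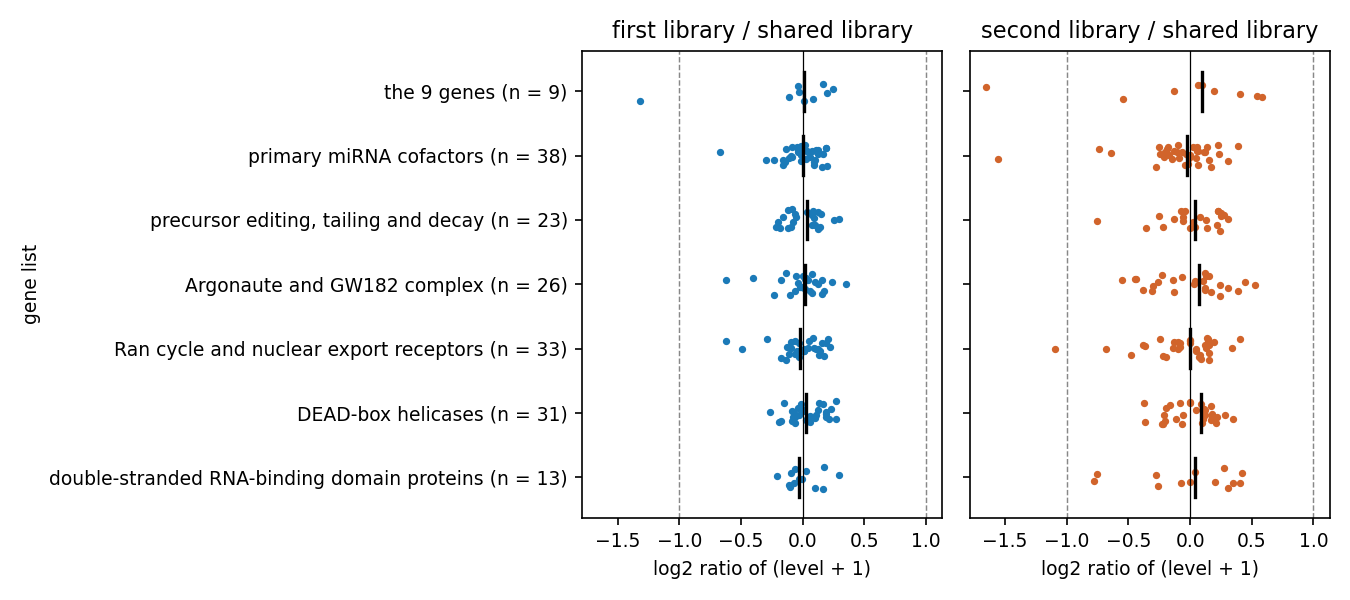
Log2 ratio of level plus 1 for the 9 genes and 6 lists of related genes (1 point a gene, vertical position within a list without meaning), with the median as a black bar, for the first library (left) and the second library (right) over the shared library; dashed lines mark 2-fold. The medians lie between -0.03 and 0.10, and the points past 2-fold are DICER1 on the left and DROSHA, HNRNPUL1 and IPO7 on the right.

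The antisense row at DICER1 stood below the shared library in both comparisons. DICER1-AS, whose exons overlap those of DICER1 on the opposite strand, had values of -0.90 and -0.68 in the authors' deposited table, so in the second comparison it stood on the other side of 0 from DICER1. Reads of the 2 genes cannot be told apart if strand was not used.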

How the data were processed

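One deposited table covers the 3 libraries, each of HEK293 poly(A) RNA. The submitters' processing notes name hg19, TopHat2 2.06, Cuffdiff 2.1.1, Cufflinks, SAMtools and CASAVA 1.8.2 without their roles. The authors deposited 2 columns of log2 fold changes, which were used, and 3 columns of per-sample levels, which carry no name and were not used. The levels served only to test what the table holds: log2 of (level + 1) over (level + 1) gave the deposited log2 values for all 12040 genes within 1e-11. The depth is unknown, and no interval was computed.

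The first log2 fold change minus the second was computed per gene, as were linear ratios, medians and counts, with Python 3.11.15, pandas 2.3.3 and numpy 2.4.6. Only the difference, the 2-fold count and the median were tested on simulated data, with changes set in the first comparison alone. Transcripts came from GENCODE 29 (GRCh38), 1 per gene (with both UTRs, APPRIS principal, longest coding sequence), and served for motifs on the transcript strand. Overlaps of genes used the exons of all annotated transcripts of each gene, on either strand, so they can lie outside the transcripts used for motifs. The table holds no coordinates, and GRCh38 is a later build than hg19. The genes, lists and words were chosen with earlier results of these data known. Named genes were the 9 members, both ends of each list in each comparison (1 end is not reported here), and the 4 genes nearest to DICER1 and to DROSHA. The planned floor on the level of those nearest genes was not applied, since it needs the level columns. DICER1-AS, genes with overlapping exons and genes rich in motif matches were added after their values were seen. With 1 library a group there was no test.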

Additional observations from a re-analysis of the deposited data

How the results depend on the processing

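Subtracting the median of all genes moved every value by the same 0.03, 0.01 or 0.02 in the first, second and direct comparison, so by its construction it could change only values that near to 0, and it is no check of stability. The values whose sign it turned were that of PRKRA in the first comparison and 6 list medians. A 3-fold line left 0 genes past it on the low side of the first comparison (1 at 2-fold) and 0 on the high side of the direct comparison (1 at 2-fold), while 16 of 18 recomputed counts were within 1.5 times. Another pseudocount, scaling by the upper quartile and a minimum level were not run, because they need the level columns, which match no group. No paired analysis was possible because each group has 1 library, and no library could be left out. The depth is unknown, so no limit from depth can be given.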
